A study of Mus musculus with 8 samples.

Results

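The complement and coagulation genes described here are 40 genes for plasma proteins that hepatocytes make and secrete. They were chosen by name, with earlier results of these data known, from 52636 genes listed in the RNA-seq files. Of them 20 are for complement and 20 for clotting and its control. All 40 were matched and had enough reads to be tested, in both genotypes, among 15562 tested genes. Liver RNA came from 8 samples of C57BL/6 mice at 8 weeks of age, 4 labelled wild type (WT, CTCF fl/fl Albcre-) and 4 labelled CTCF cKO (CTCF fl/fl Albcre+). Both groups thus carried floxed Ctcf alleles, and cKO alone carried the Albcre transgene, in which the albumin promoter restricts Cre mainly to hepatocytes. No group carried Cre without floxed alleles, so an effect of Cre and of Ctcf loss cannot be told apart. Whether each sample came from its own mouse is not said in the labels, and p-values therefore cover the spread among these libraries, which may be technical. The comparison asked how the livers' transcripts differed after deletion of Ctcf, whose protein is a zinc finger factor that organises chromatin loops.

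Complement is a chain of proteases in plasma that marks and perforates microbes. It starts from antibody (classical pathway), from sugars (lectin pathway) or on its own (alternative pathway), and all routes meet at C3 and end in a pore of the terminal proteins. Coagulation is a similar chain that ends when thrombin turns fibrinogen into fibrin, with inhibitors that restrain it and plasmin that dissolves the clot. The liver is the main source of both systems in blood, and several of their genes are also raised in the acute phase response to inflammation.

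Each library held between 43.9 M and 57.3 M counts. The targeted gene, Ctcf, did not overlap between the genotypes, at 16.5 ± 0.41 CPM (counts scaled to library size with TMM factors) in WT and 12.2 ± 0.95 CPM in cKO (SD, n = 4 each; log2 change -0.44, SE 0.08, edgeR adjusted p = 0.00202). All values below are CPM in replicates 1 to 4 of each genotype in that order, unless TPM (a scale that allows for gene length) is named, and tests are edgeR's quasi-likelihood test with adjustment over all tested genes at 0.05. The hepatocyte marker list was high in every library, with a summed level, most of it from Alb and other abundant genes, of 105600 to 138100 CPM in WT and 114800 to 129000 CPM in cKO. Of its 12 genes 4 were lower (33.3%, beside 15.1% of all tested genes) and 1 was higher (8.33%, beside 15.3%). The lower ones were Apoa2 (log2 change -0.69), Ttr (-0.68), Apoa1 (-0.35) and Hnf4a (-0.25), and the higher one was Cps1 (0.58). Markers of stellate cells, the vitamin A storing cells of the liver, were higher in cKO for 14 of 14 genes, with a summed level of 282 to 313 CPM in WT and 513 to 665 CPM in cKO. Fewer cells of a type and less RNA per cell cannot be told apart in whole liver.

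WT replicates 3 and 4 stood apart from WT replicates 1 and 2 in several acute phase genes. Saa1, serum amyloid A, had 49.1, 60.2, 598 and 1864 CPM in WT and 36.7, 35.2, 36.5 and 27.7 CPM in cKO. Haptoglobin (Hp) had 7607, 5945, 11340 and 10810 CPM in WT and 4228, 4384, 3751 and 3589 CPM in cKO. Not every gene of that list did so: in WT Crp had 212, 227, 214 and 256 CPM. Hamp ran the other way, with 1126, 1032, 740.5 and 610.2 CPM in WT. The 2 libraries also differed outside the list: Alb had 69450, 71160, 54310 and 43680 CPM in WT. Of the 40 complement and coagulation genes, 20 had their highest WT values in replicates 3 and 4. Results are therefore given with and without these libraries where that matters, and the part of the acute phase in them was not tested.

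Most complement and coagulation genes were lower in cKO. Of the 40, 25 were lower and 2 higher, where 15.1% of all tested genes were lower, 15.3% higher and 30.4% called either way. The libraries of the genotypes did not overlap for 24 of the 25 lower genes and for both higher genes. Over all tested genes, 12.9% were called lower and 13.1% called higher with no overlap. Among the 6269 tested genes at least as abundant as the scarcest member, Masp1 (mean 13.3 CPM over all libraries), 21.6% were lower. That set is not matched to the 40 genes in level, since most of them lay far above Masp1, up to C3 with 5559 CPM in WT. The median log2 change of the 40 genes was -0.34, beside -0.01 over all tested genes. The changes were moderate: they ran from -0.91 for F11 to 0.59 for Pros1. The 20 complement genes gave 14 lower and 0 higher, and edgeR without adjustment, DESeq2 and limma-voom also gave 0 higher. The 20 clotting genes gave 11 lower and 2 higher. Together the 40 genes held 1.91%, 1.94%, 2.13% and 2.02% of all TPM in WT and 1.76%, 1.71%, 1.69% and 1.80% in cKO.

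**Figure D1:**
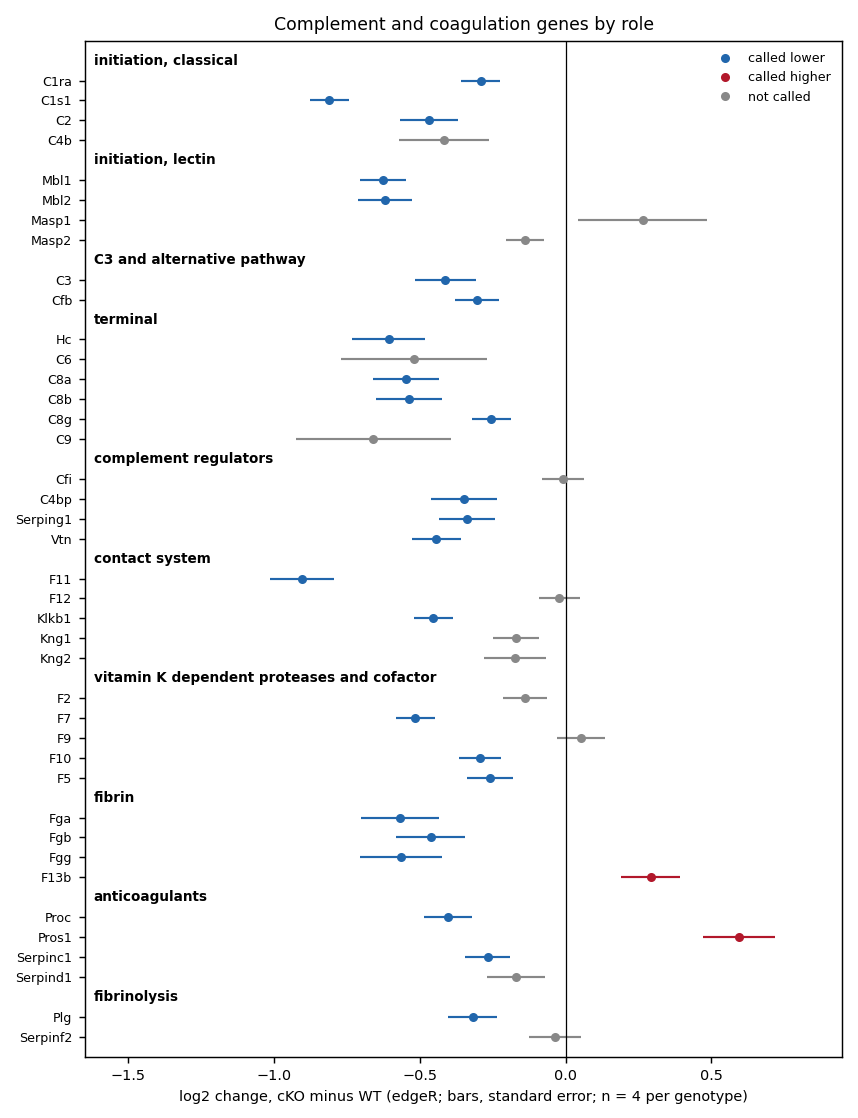
Log2 change in cKO against WT (horizontal axis) for 40 genes grouped by role, with the standard error of the edgeR fit (n = 4 libraries per genotype) and colours for genes called lower, called higher or not called at an adjusted p under 0.05. Points run from -0.91 (F11) to 0.59 (Pros1), and 25 are called lower and 2 higher.

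The count depended on the scaling and on WT replicates 3 and 4. With DESeq2 28 of the 40 were lower and with an offset for effective length 26, where 2450 and 2091 of all genes were lower. With library size alone 16 of the 40 were lower and 2 higher, where 8.58% of all genes were lower and 23.3% higher. The 16 were all among the 25. The median log2 change was then -0.24 for the 40 genes and 0.10 for all genes, a gap of -0.337 beside -0.338 with TMM factors. With limma on log2(TPM + 1) 15 were lower and 2 higher, with backgrounds of 6.12% and 26.2%. That scaling moved the median log2 change of all genes to 0.12, and that of the 40 genes was then -0.15. Without WT replicates 3 and 4, 17 were lower and 1 higher (backgrounds 10.6% and 11.1%), and 16 of the 17 were among the 25. Of the 27 called genes, 11 kept their call under all 24 alternatives: C1s1, C2, Mbl1, Mbl2, C8a, C8b, Vtn, F11, Klkb1, F7 and Pros1.

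**Figure D2:**
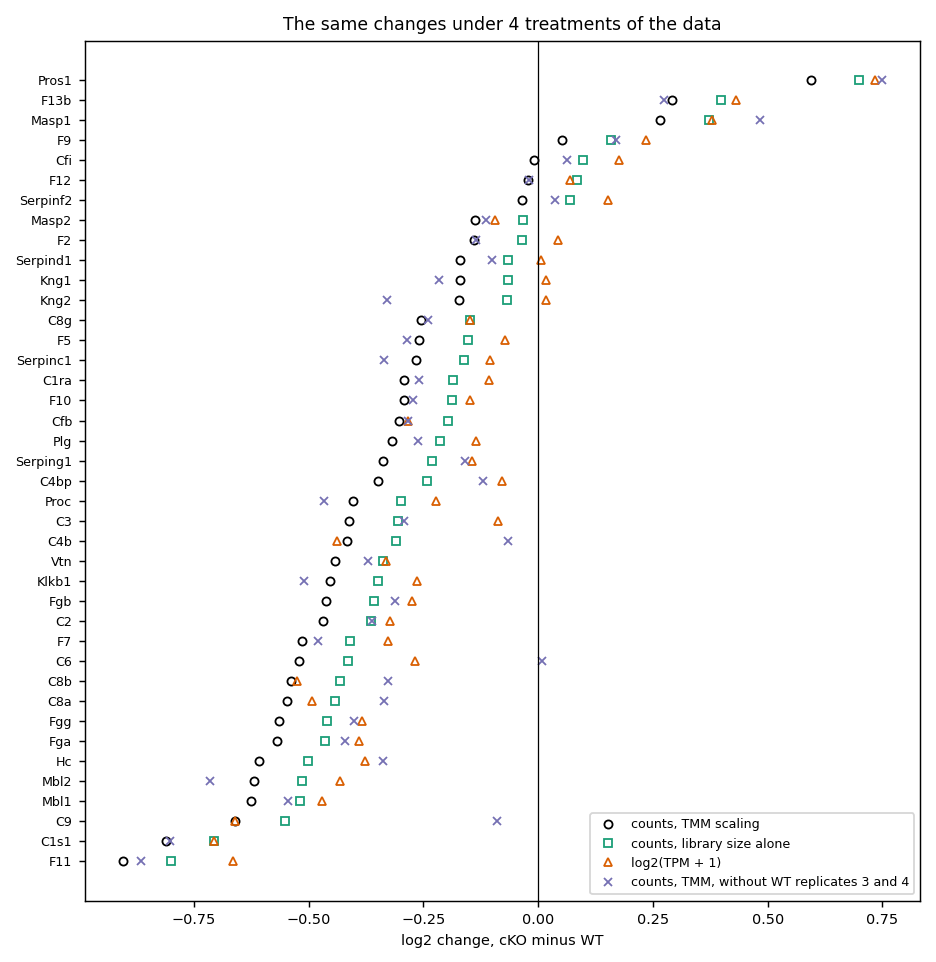
Log2 change in cKO against WT (horizontal axis) of each of the 40 genes under 4 treatments of the data: counts with TMM factors, counts scaled by library size alone, log2(TPM + 1), and counts with TMM factors without WT replicates 3 and 4. C1s1 ranges from -0.81 to -0.71 and Pros1 from 0.59 to 0.75, whereas C6 and C9 move to 0.01 and -0.09 without the 2 WT libraries.

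The proteases that start the classical pathway were lower, and C1s1 most of all. C1s1 encodes C1s, the protease of the C1 complex that cleaves C4 and C2, and lies on mm10 chromosome 6 (124530344 to 124542392). It had 411, 446, 436 and 431 CPM in WT and 239, 249, 234 and 261 CPM in cKO, so that 57.0% of the WT level remained (log2 change -0.81, SE 0.07, edgeR adjusted p = 2.6e-05). The spread within each genotype was small beside the gap between them. C1ra, for the protease C1r that activates C1s, lies 6903 bases away and had 245, 261, 251 and 277 CPM in WT and 209, 208, 204 and 226 CPM in cKO (log2 change -0.29, SE 0.07, edgeR adjusted p = 0.00875). Library size alone and limma on log2 TPM ended its call. Mouse has near-identical copies of both genes, C1rb and C1s2, which were given at most 12.98 and 12.26 estimated counts in any library, so that few reads were assigned to them. C2, the protease part of the classical C3 convertase, had 87.6, 105, 100 and 122 CPM in WT and 70.5, 76.9, 69.9 and 82.6 CPM in cKO (log2 change -0.47, SE 0.10, edgeR adjusted p = 0.00531).

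C4b, the source of the other part of that convertase, was not called. It had 941, 976, 1402 and 1572 CPM in WT and 921, 961, 845 and 937 CPM in cKO (log2 change -0.42, SE 0.16, edgeR adjusted p = 0.0649). WT replicates 3 and 4 were far above the cKO libraries, and WT replicates 1 and 2 lay at their level. Without WT replicate 4 the log2 change was -0.27, and without WT replicates 3 and 4 it was -0.07, whereas leaving out WT replicate 1 or 2 brought the adjusted p to 0.0243 or 0.0343. It also passed with the effective length offset (-0.62, 0.0115), with DESeq2 (-0.41, 0.0291) and with limma on log2(TPM + 1) (-0.44, 0.0428). C4b and its neighbour C4a are near-identical copies, so that the division of reads between them is uncertain.

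The mannose-binding lectins, which recognise microbial sugars for the lectin pathway, were both lower. Mbl1 had 228, 217, 260 and 236 CPM in WT and 162, 161, 143 and 143 CPM in cKO (log2 change -0.63, SE 0.08, edgeR adjusted p = 0.000296). Mbl2 had 256, 303, 246 and 242 CPM in WT and 194, 159, 164 and 166 CPM in cKO (log2 change -0.62, SE 0.09, edgeR adjusted p = 0.000843). Neither gene's genotypes overlapped, and both calls held under every alternative. Their proteases were not called: Masp2, which cleaves C4 and C2, differed by -0.14 on the log2 scale (edgeR adjusted p = 0.135; past the threshold with an effective length offset, at -0.27 and 0.02). Masp1, which activates Masp2, was the scarcest gene of the 40, at 12.1 ± 3.07 CPM in WT against 14.5 ± 3.71 in cKO (SD, n = 4 each; log2 change 0.27, edgeR adjusted p = 0.399). Its estimate moved from 0.08 without cKO replicate 4 to 0.42 without WT replicate 4.

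C3, the hub of all complement routes, was the most abundant of the 40 genes in CPM. It had 5193, 5035, 6186 and 5821 CPM in WT and 4263, 3583, 4245 and 4618 CPM in cKO (log2 change -0.41, SE 0.11, edgeR adjusted p = 0.0133). In TPM the genotypes overlapped, with 1214 ± 134 in WT and 1154 ± 223 in cKO (SD, n = 4 each). The effective length that RSEM gave C3 differed between the libraries, from 4508 to 4955 bases in WT and from 3982 to 4783 bases in cKO, and an offset for it ended the call (edgeR adjusted p = 0.186). Leaving out WT replicates 3 and 4 ended it as well (0.103). Cfb, factor B, the protease part of the alternative convertase, had 980, 1114, 1044 and 1109 CPM in WT and 857, 834, 836 and 918 CPM in cKO (log2 change -0.30, SE 0.08, edgeR adjusted p = 0.0119). Its call was lost with library size alone (0.0611) and without WT replicates 3 and 4 (0.0578).

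The terminal proteins form the membrane pore, and 4 of the 6 were lower. Hc, the mouse gene for C5, whose cleavage starts pore assembly, had 526, 537, 721 and 778 CPM in WT and 398, 450, 413 and 421 CPM in cKO (log2 change -0.61, SE 0.12, edgeR adjusted p = 0.00466). C8a and C8b, for chains of C8, lie 11130 bases apart on chromosome 4 and fell alike. C8a had 394, 398, 538 and 506 CPM in WT and 294, 357, 297 and 307 CPM in cKO (log2 change -0.55, SE 0.11, edgeR adjusted p = 0.00482). C8b had 202, 220, 260 and 294 CPM in WT and 154, 176, 159 and 183 CPM in cKO (log2 change -0.54, SE 0.11, edgeR adjusted p = 0.00519). In all of these genes WT replicates 3 and 4 were the highest libraries, and without them the changes were smaller but still past the threshold, at -0.34 for Hc, -0.34 for C8a and -0.33 for C8b. Hc did not pass with limma on log2(TPM + 0.1) (adjusted p = 0.0503).

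C8g, the remaining chain of C8, a lipocalin encoded on chromosome 2, varied less among the WT libraries. It had 426, 443, 432 and 454 CPM in WT and 368, 389, 363 and 352 CPM in cKO (log2 change -0.25, SE 0.07, edgeR adjusted p = 0.0136), and library size alone, limma on log2 TPM and leaving out WT replicates 3 and 4 (-0.24, adjusted p = 0.0632) ended its call. C6 and C9, which bind after C5 and form the pore itself, were not called. C6 had 140, 141, 260 and 269 CPM in WT and 119, 166, 138 and 142 CPM in cKO (log2 change -0.52, SE 0.25, edgeR adjusted p = 0.158). C9 had 198, 238, 391 and 467 CPM in WT and 190, 228, 195 and 206 CPM in cKO (log2 change -0.66, SE 0.27, edgeR adjusted p = 0.1001). For both genes WT replicates 3 and 4 were far above the cKO libraries. WT replicates 1 and 2 lay among the cKO libraries for C6, and for C9 replicate 1 did so and replicate 2 was slightly above them. Without replicates 3 and 4 the log2 changes were 0.01 and -0.09, and without replicate 4 alone that of C9 was -0.43. Without WT replicate 1 C9 was past the threshold (-0.84, edgeR adjusted p = 0.0221). C9 also passed with the effective length offset (-0.91, edgeR adjusted p = 0.0484) and without robust fitting (-0.66, 0.0497). C6 passed with DESeq2 (-0.52, adjusted p = 0.0435).

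**Figure D3:**
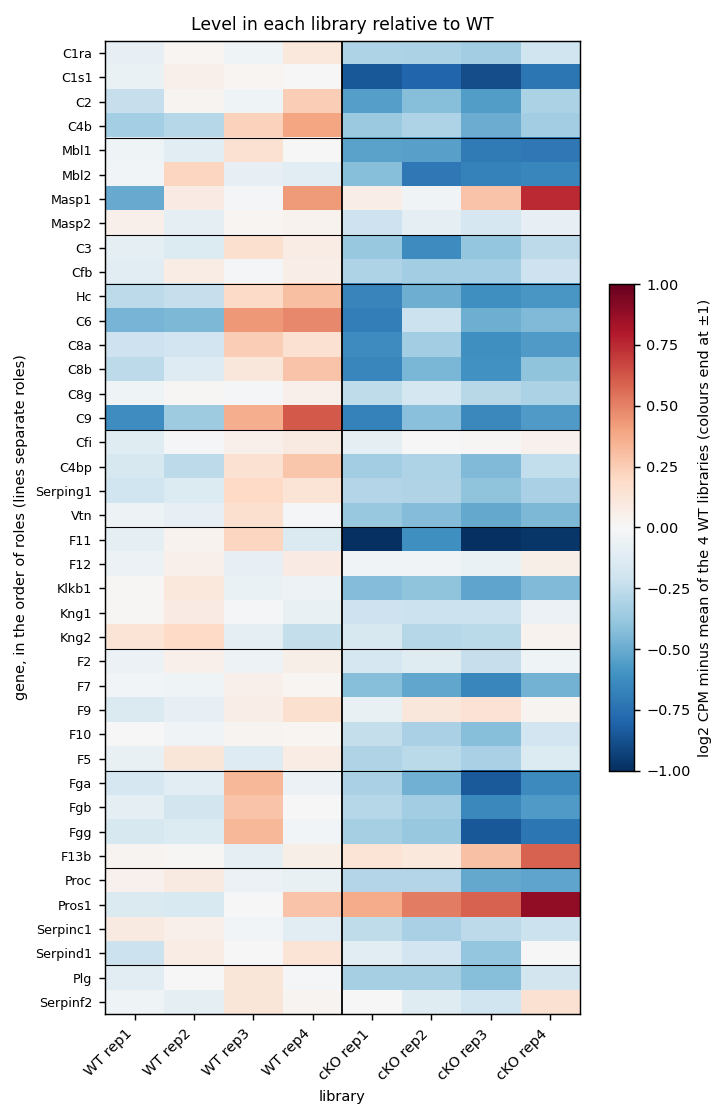
Level of each of the 40 genes (rows, ordered by role) in each of the 8 libraries (columns), as log2 CPM minus the mean of the 4 WT libraries, with colours ending at ±1. WT replicates 3 and 4 are redder than replicates 1 and 2 in the terminal genes Hc, C6, C8a, C8b and C9, where C9 stands at 391 and 467 CPM against 198 and 238 CPM, and the cKO columns are blue for most rows.

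Of 4 complement regulators 3 were lower. Vtn, vitronectin, which keeps the terminal complex out of membranes and also stabilises the plasminogen activator inhibitor, had 3044, 2980, 3530 and 3116 CPM in WT and 2437, 2343, 2218 and 2318 CPM in cKO (log2 change -0.44, SE 0.08, edgeR adjusted p = 0.0031). That call held under every alternative. Serping1, the C1 inhibitor, which blocks C1r, C1s, plasma kallikrein and factor XII, had 767, 802, 1015 and 971 CPM in WT and 722, 718, 668 and 705 CPM in cKO (log2 change -0.34, SE 0.10, edgeR adjusted p = 0.0223). Leaving out WT replicate 3 (0.0676) or cKO replicate 3 (0.0697) ended its call, as did library size alone (0.0779) and limma on log2(TPM + 1) (-0.14, adjusted p = 0.253). Without WT replicates 3 and 4 its log2 change was -0.16 (0.207).

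C4bp, the C4-binding protein that helps factor I destroy C4b, had 323 ± 56.7 CPM in WT against 253 ± 14.2 in cKO (SD, n = 4 each; log2 change -0.35, SE 0.11, edgeR adjusted p = 0.0351). It was the lower gene whose libraries overlapped, with 266 CPM in WT replicate 2 and 269 CPM in cKO replicate 4. Its call was ended by leaving out WT replicate 3, WT replicate 4 or each cKO library in turn (adjusted p 0.0547 to 0.103), and its log2 change was -0.12 without both WT libraries. It was also lost with library size alone (0.104), with the effective length offset (-0.26, 0.148) and with limma on log2(TPM + 1) (-0.08, 0.669). Cfi, factor I, the protease that cuts C3b and C4b, had 371 ± 23.4 CPM in WT against 368 ± 14.8 in cKO (log2 change -0.01, edgeR adjusted p = 0.937), the smallest difference of the 40.

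Among the genes of the contact system, which starts clotting on charged surfaces, F11 and Klkb1 were lower. F11, factor XI, which activates factor IX, had 37.8, 41.5, 46.9 and 36.7 CPM in WT and 20.1, 26.5, 19.7 and 20.7 CPM in cKO, so that 53.4% of the WT level remained (log2 change -0.91, SE 0.11, edgeR adjusted p = 0.00023). Klkb1, plasma prekallikrein, is a related protease gene that lies 4632 bases from F11 on chromosome 8. It had 298, 317, 282 and 284 CPM in WT and 219, 223, 204 and 217 CPM in cKO (log2 change -0.45, SE 0.07, edgeR adjusted p = 0.000818). Both calls held under every alternative.

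The rest of the contact system was not called. F12, factor XII, the protease that starts the cascade, had 544 ± 30.6 CPM in WT against 536 ± 19.9 in cKO (log2 change -0.02, edgeR adjusted p = 0.842). Kng1 and Kng2, the paralogs for kininogen, from which kallikrein frees bradykinin, had log2 changes of -0.17 each (edgeR adjusted p = 0.123 and 0.237). Kng1 was the third most abundant of the 40 per length, with 1369 ± 74.1 TPM in WT and 1386 ± 106 TPM in cKO. Without WT replicates 3 and 4 Kng2 was past the threshold (-0.33, edgeR adjusted p = 0.0435). With DESeq2 on all libraries Kng1 was past it (-0.17, adjusted p = 0.0458).

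Of the proteases that depend on vitamin K, F7 and F10 were lower. F7, factor VII, which starts clotting together with tissue factor, had 95.2, 93.8, 100 and 98.4 CPM in WT and 72.1, 67.8, 61.6 and 69.9 CPM in cKO (log2 change -0.52, SE 0.07, edgeR adjusted p = 0.000368). F10, factor X, which makes thrombin, lies 1498 bases from F7 on chromosome 8 and had 427, 418, 436 and 434 CPM in WT and 363, 343, 319 and 376 CPM in cKO (log2 change -0.29, SE 0.07, edgeR adjusted p = 0.0104). F5, factor V, the cofactor of factor X, had 232, 266, 223 and 257 CPM in WT and 198, 203, 195 and 221 CPM in cKO (log2 change -0.26, SE 0.08, edgeR adjusted p = 0.0265). For F5 the genotypes came close, at 223 CPM in WT replicate 3 and 221 CPM in cKO replicate 4. Library size alone and TPM ended the calls of F10 and F5, and F5 also lost its call when WT replicate 2 or 4, or cKO replicate 1, 2 or 3, was dropped (0.0511 to 0.0858). The call of F10 was ended without WT replicates 3 and 4 (0.057).

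Thrombin itself and factor IX were not called. F2, prothrombin, had 1378, 1487, 1390 and 1497 CPM in WT and 1279, 1321, 1227 and 1392 CPM in cKO (log2 change -0.14, SE 0.08, edgeR adjusted p = 0.182). The genotypes overlapped only through WT replicates 1 and 3 and cKO replicate 4. F9, factor IX, which activates factor X and is encoded on the X chromosome, had 150 ± 14.3 CPM in WT against 155 ± 10.5 in cKO (log2 change 0.05, edgeR adjusted p = 0.664).

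The genes of the 3 fibrinogen chains, which lie side by side on chromosome 3 (83007724 to 83049863), fell together. Fga, the alpha chain, had 1804, 1890, 2552 and 1952 CPM in WT and 1624, 1456, 1136 and 1309 CPM in cKO (log2 change -0.57, SE 0.13, edgeR adjusted p = 0.00871). Fgb, the beta chain, had 2127, 1996, 2766 and 2266 CPM in WT and 1867, 1784, 1455 and 1534 CPM in cKO (log2 change -0.46, SE 0.12, edgeR adjusted p = 0.0132). Fgg, the gamma chain, had 1481, 1506, 2081 and 1622 CPM in WT and 1319, 1275, 923 and 1004 CPM in cKO (log2 change -0.57, SE 0.14, edgeR adjusted p = 0.0124). In all of them WT replicate 3 was the highest library and cKO replicate 3 the lowest. Without WT replicates 3 and 4 Fga stayed past the threshold (-0.42, edgeR adjusted p = 0.0478), and Fgb (-0.31, 0.0867) and Fgg (-0.40, 0.0723) did not. Limma on log2(TPM + 1) also ended the calls of Fgb (0.0702) and Fgg (0.0512).

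F13b, the carrier subunit of factor XIII, which crosslinks fibrin, was higher. It had 73.8, 72.8, 67.6 and 75.5 CPM in WT and 79.5, 77.8, 88.5 and 109 CPM in cKO (log2 change 0.29, SE 0.10, edgeR adjusted p = 0.0457). The genotypes were close but did not overlap, at 75.5 CPM in WT replicate 4 and 77.8 CPM in cKO replicate 2. The call was ended by leaving out any 1 of the WT libraries (0.0516 to 0.12) or cKO replicate 3 (0.076) or 4 (0.106), and without cKO replicate 4 the log2 change was 0.18.

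**Figure D4:**
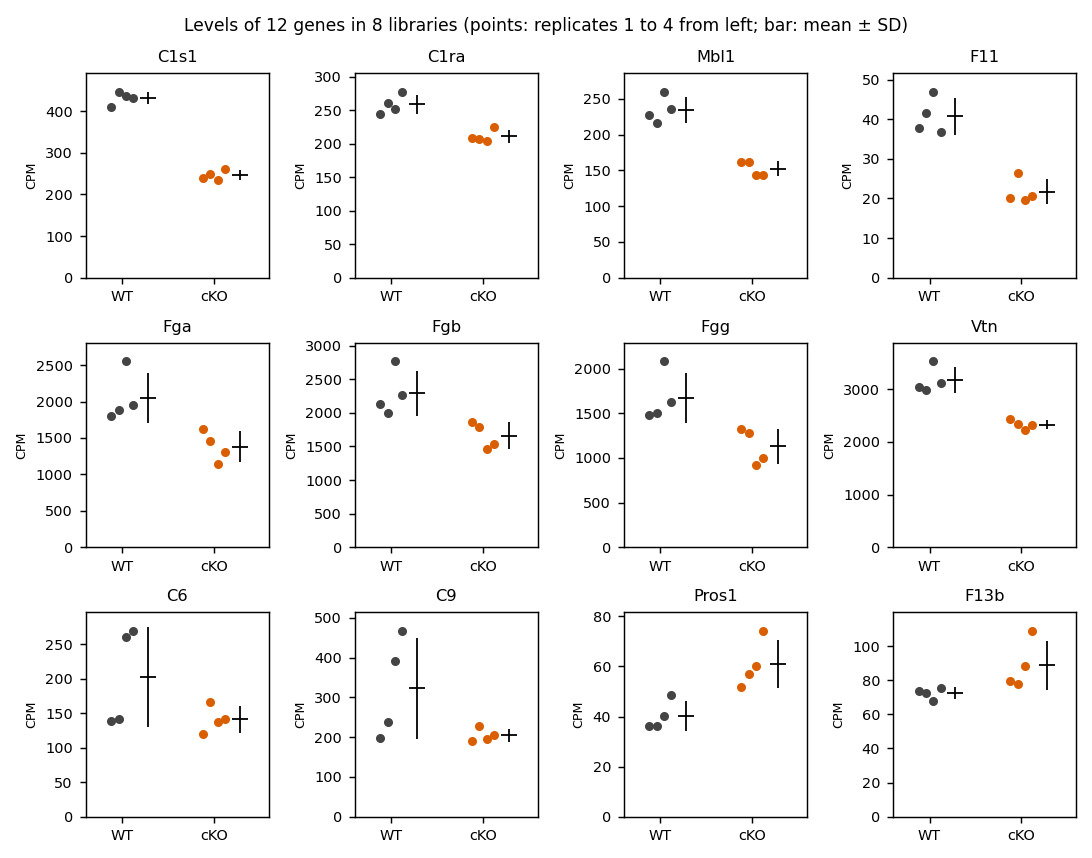
CPM (vertical axes from 0) of 12 genes in the 4 WT and 4 cKO libraries, with replicates 1 to 4 from left to right within each genotype and the mean and SD beside them. C1s1 and F11 lie in separate ranges (411 to 446 against 234 to 261 CPM for C1s1), whereas in C6 and C9 WT replicates 1 and 2 (140 and 141 CPM, 198 and 238 CPM) lie near the cKO libraries.

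The anticoagulant genes moved in different directions. Proc, protein C, which inactivates factor V, had 686, 708, 641 and 634 CPM in WT and 545, 543, 468 and 462 CPM in cKO (log2 change -0.40, SE 0.08, edgeR adjusted p = 0.00451). Pros1, protein S, its cofactor, which is also made by endothelial and other cells, had 36.3, 36.1, 40.2 and 48.8 CPM in WT and 51.9, 57.0, 60.3 and 74.2 CPM in cKO, so that the cKO level was 151% of the WT level (log2 change 0.59, SE 0.12, edgeR adjusted p = 0.0055). Its genotypes did not overlap, the call held under every alternative, and it was the largest rise of the 40. Markers of endothelial cells had summed levels that overlapped between the genotypes (141 to 262 CPM in WT, 189 to 281 CPM in cKO), and 2 of 10 were higher. Stellate markers were higher, as given above. Their part in the value of Pros1 was not tested.

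Serpinc1, antithrombin, the main inhibitor of thrombin and factor X and the most abundant of the 40 per length (2569 ± 191 TPM in WT and 2386 ± 110 TPM in cKO), had 2174, 2121, 2006 and 1892 CPM in WT and 1713, 1632, 1702 and 1762 CPM in cKO (log2 change -0.27, SE 0.08, edgeR adjusted p = 0.0236). This call was lost when WT replicate 1 or 2, or cKO replicate 1, 2 or 3, was dropped (0.0518 to 0.0724), with library size alone and with limma on log2 TPM. Serpind1, heparin cofactor II, was not called (log2 change -0.17, edgeR adjusted p = 0.213).

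Of the genes of clot removal, Plg was lower and Serpinf2 was not called. Plg, plasminogen, which becomes plasmin, had 1629, 1762, 1917 and 1752 CPM in WT and 1402, 1399, 1310 and 1548 CPM in cKO (log2 change -0.32, SE 0.08, edgeR adjusted p = 0.015). Its call was ended by library size alone (0.0608), by TPM, by leaving out cKO replicate 3 (0.0525) and by leaving out WT replicates 3 and 4 (0.0881). Serpinf2, the main inhibitor of plasmin, had 688 ± 45.4 CPM in WT against 671 ± 71.5 in cKO (log2 change -0.04, edgeR adjusted p = 0.79).

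Ratios between partner genes do not depend on library scaling, and 10 were compared in TPM with exact two-sided permutation tests, in which no p can fall under 0.0286. The ratio of C1s1 to C1ra was 2.01, 2.05, 2.16 and 1.82 in WT and 1.32, 1.36, 1.31 and 1.28 in cKO, without overlap (p = 0.0286, exact permutation test; 0.143 adjusted over the 10 ratios). TPM depends on effective length, which for C1s1 was 2255 to 2397 bases in WT and 2423 to 2522 bases in cKO. In CPM, which ignores it, the log2 difference of this ratio was -0.52, beside -0.60 in TPM. The ratio of Serpinf2 to Plg was 0.536, 0.477, 0.510 and 0.527 in WT and 0.648, 0.594, 0.606 and 0.656 in cKO, also without overlap (p = 0.0286, exact permutation test; 0.143 adjusted). After adjustment none of the 10 passed 0.05, and with so few libraries the adjusted p of a single separated ratio cannot. C8g to C8a was 1.61 ± 0.23 in WT and 2.04 ± 0.17 in cKO (SD, n = 4 each; p = 0.0571, exact permutation test; 0.19 adjusted), with WT replicate 2 above cKO replicate 2. For the fibrinogen chains no difference was detectable: Fgg to Fga was 1.03 ± 0.02 in WT and 1.04 ± 0.06 in cKO, and Fgb to Fga 0.594 ± 0.031 and 0.643 ± 0.032, with adjusted p of 0.971 and 0.229 by exact permutation tests. Mbl2 to Mbl1 was 1.09 ± 0.19 in WT and 1.11 ± 0.10 in cKO.

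**Figure D5:**
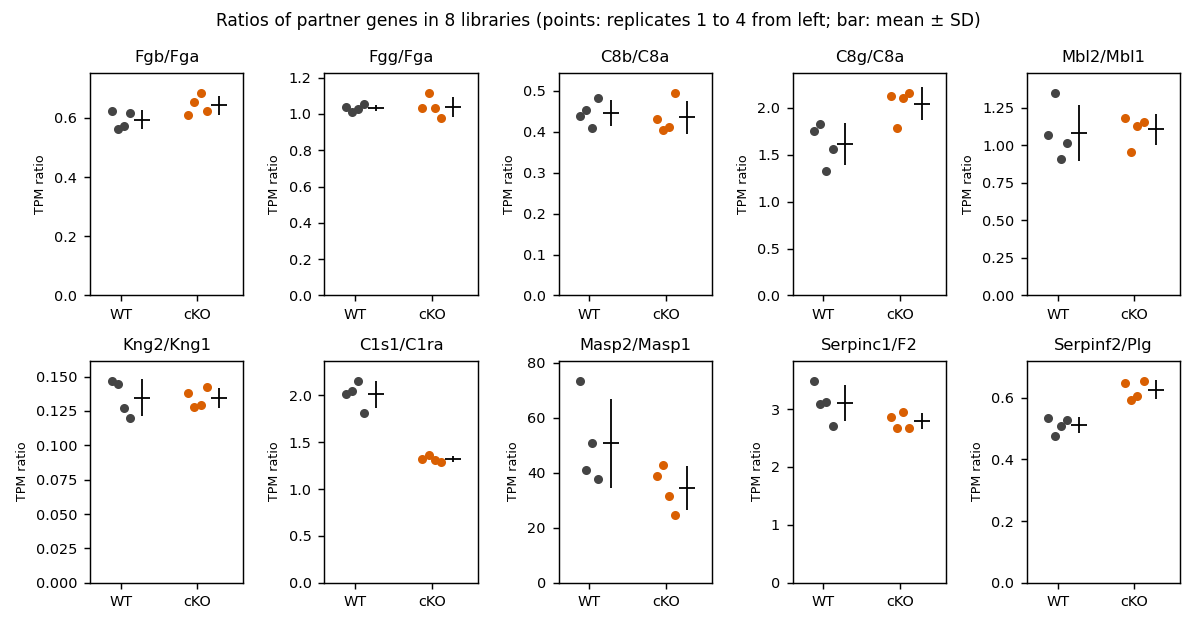
Ratio of the TPM of 2 genes (vertical axes from 0) in each of 8 libraries for 10 pairs, with replicates 1 to 4 from left to right and the mean and SD beside them. The genotypes separate for C1s1 to C1ra (1.82 to 2.16 against 1.28 to 1.36) and for Serpinf2 to Plg (0.477 to 0.536 against 0.594 to 0.656).

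Many of the genes lie in pairs or clusters. Of the 40, 16 have another member within 200 kb, in 9 adjacent pairs. Both genes were lower in 7 of the pairs: Fgg and Fga, Fga and Fgb, C8b and C8a, C1ra and C1s1, F7 and F10, F11 and Klkb1, and Cfb and C2, whose genes are 87 bases apart. Fga is in more than 1 of these pairs, and 25 of all 40 genes (62.5%) were lower wherever they lay. Whether neighbours fell together more often than other members was not tested. Within pairs the log2 changes were alike for C8b and C8a (-0.54 and -0.55) and unlike for C1ra and C1s1 (-0.29 and -0.81) and for Klkb1 and F11 (-0.45 and -0.91). Between C4b and Cfb on chromosome 17, 6 other genes were tested and 3 were lower, Dxo, Stk19 and Skiv2l with log2 changes of -0.55, -0.44 and -0.18, so that in this interval falls were not limited to complement genes.

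Promoters were read from RefSeq windows on GRCm38.p6, the patched assembly called mm10, running from 250 bases before to 50 bases after a transcript start, with 33 windows for 31 of the 40 genes. The letters TTGCNNAA, found in sites of C/EBP factors, which act in liver and in the acute phase, were searched on both strands and occurred in 11 windows (33.3%, beside 10.8% of all 32851 windows). The genes were C1ra, C1s1, C3, C9, F11, F9, Fga, Fgb, Klkb1, Kng2 and Serpinc1, of which 8 were lower and 0 higher, and of the 20 genes without the letters 12 were lower and 2 higher. CAAAGTC of HNF4 sites occurred in 1 window (3.03%, beside 4.44%), in Vtn. The CTCF core motif occurred in 1 window (3.03%, beside 2.43%), in C1ra. A match is a description of letters and not a site.

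The 150 bases before a transcript start are shown for the fibrinogen chains, which fell together, for C1s1 and F11, which fell most among the called genes, and for the genes that rose, F13b and Pros1. Each is written 5′ to 3′ on the gene's strand, with the letters TTGCNNAA on either strand in capitals. The positions are chr3:83026003-83026152 (plus strand) for Fga, chr3:83049864-83050013 (minus strand) for Fgb, chr3:83007574-83007723 (plus strand) for Fgg, chr6:124542360-124542509 (minus strand) for C1s1, chr8:45262032-45262181 (minus strand) for F11, chr1:139501557-139501706 (plus strand) for F13b and chr16:62854157-62854306 (plus strand) for Pros1. The transcript start used was not always the outer end of the gene. The F13b stretch lies inside the annotated gene (139501547 to 139523758). Those of C1s1 and F11 overlap the annotated genes, which end at 124542392 and 45262055.
Fga: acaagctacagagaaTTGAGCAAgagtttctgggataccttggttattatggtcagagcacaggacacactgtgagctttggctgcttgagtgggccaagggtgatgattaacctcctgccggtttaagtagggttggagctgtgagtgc
Fgb: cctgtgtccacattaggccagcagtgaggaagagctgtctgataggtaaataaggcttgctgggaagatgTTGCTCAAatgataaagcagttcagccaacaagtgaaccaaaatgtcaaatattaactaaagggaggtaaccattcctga
Fgg: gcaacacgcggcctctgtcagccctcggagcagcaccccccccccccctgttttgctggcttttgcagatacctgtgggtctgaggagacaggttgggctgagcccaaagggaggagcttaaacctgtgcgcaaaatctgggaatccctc
C1s1: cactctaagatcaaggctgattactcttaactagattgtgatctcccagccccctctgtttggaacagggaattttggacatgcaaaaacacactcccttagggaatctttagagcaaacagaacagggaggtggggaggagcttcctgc
F11: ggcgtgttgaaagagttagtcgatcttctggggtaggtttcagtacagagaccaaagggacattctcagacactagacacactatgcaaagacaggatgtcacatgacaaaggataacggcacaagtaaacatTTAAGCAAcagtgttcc
F13b: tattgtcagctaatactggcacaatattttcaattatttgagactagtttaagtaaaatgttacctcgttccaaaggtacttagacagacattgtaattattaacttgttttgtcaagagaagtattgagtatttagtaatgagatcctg
Pros1: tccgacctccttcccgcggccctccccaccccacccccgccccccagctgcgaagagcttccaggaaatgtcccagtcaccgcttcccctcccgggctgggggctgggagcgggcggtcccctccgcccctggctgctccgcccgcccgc
The matched letters begin 135 bases before the start in Fga, 80 in Fgb and 17 in F11. They are not in the stretches shown for Fgg, for C1s1, whose match lies elsewhere in its window, or for F13b and Pros1. Whether the letters bear on the changes was not tested. Among 24 regulators of liver genes 4 were lower (16.7%) and 2 higher (8.33%), beside backgrounds of 15.1% and 15.3%. Hnf4a is on this list and also on the hepatocyte marker list. The nuclear receptor Hnf4a (582 ± 63.6 to 491 ± 11.1 CPM; log2 change -0.25, edgeR adjusted p = 0.0452), the bile acid receptor Nr1h4 (log2 change -0.37, a call lost with library size alone, adjusted p = 0.0581) and Foxa3 (-0.33, a call lost without cKO replicate 2 or 3, with adjusted p of 0.0524 and 0.0569) were among the lower ones. Foxa3 also lost its call with library size alone (adjusted p = 0.0637) and without WT replicates 3 and 4 (0.0759). Limma on log2(TPM + 1) ended the calls of Foxa3 (0.217) and Nr1h4 (0.167). Il6st, the shared receptor chain of the interleukin 6 family, was higher (log2 change 0.35, edgeR adjusted p = 0.00421).

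The other genes of these systems that liver is known to express included higher and lower ones. Of 28 listed 23 were tested, and 4 were lower (17.4%, beside 15.1% of all tested genes) and 3 higher (beside 15.3%), with a median log2 change of -0.07. Proz, protein Z, the cofactor for inhibition of factor X, had 356, 323, 364 and 356 CPM in WT and 259, 252, 235 and 243 CPM in cKO (log2 change -0.50, SE 0.07, edgeR adjusted p = 0.000501). Hgfac, a protease that activates hepatocyte growth factor, and Apoh, which binds phospholipids, had log2 changes of -0.38 and -0.33 (edgeR adjusted p = 0.00297 and 0.00941). The call of Apoh was lost with library size alone (-0.22, 0.0515) and with limma on log2(TPM + 1) (-0.14, 0.132). Serpina10, the inhibitor that works with protein Z, was the other lower gene (-0.27). The higher genes were Colec10 and Colec11, collectins of the lectin pathway, and Adamts13, which cuts von Willebrand factor. Colec11 had 22.7, 21.4, 22.6 and 22.8 CPM in WT and 34.1, 28.4, 30.9 and 39.9 CPM in cKO (log2 change 0.58, SE 0.10, edgeR adjusted p = 0.00162), and it is also on the list of stellate markers given above.

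Genes of complement and clotting known mainly from cells other than hepatocytes were higher in part. Of 29 listed 26 were tested, with a median log2 change of 0.26. Of these 8 were higher (30.8%, beside 15.3% of all tested genes) and 0 lower (beside 15.1%). Without adjustment edgeR gave 1 lower gene at 0.05, and DESeq2 and limma-voom gave 0. Anxa2, a receptor for plasminogen and its activator, rose from 7.94 ± 1.29 to 22.7 ± 3.61 CPM (SD, n = 4 each; log2 change 1.51, SE 0.14, edgeR adjusted p = 4.9e-05). Plat, the tissue plasminogen activator, rose from 0.444 ± 0.160 to 1.65 ± 0.20 CPM (log2 change 1.87, edgeR adjusted p = 0.00031), a low level. F2rl1, a receptor cleaved by proteases, and Thbd, thrombomodulin, which turns thrombin towards protein C, were also higher, F2rl1 from 0.164 ± 0.056 to 0.466 ± 0.073 CPM and Thbd from 1.02 ± 0.26 to 2.21 ± 0.91 CPM. The call of Thbd was lost without WT replicates 3 and 4 (0.85, edgeR adjusted p = 0.126), and Anxa2, Plat and F2rl1 kept theirs. F8 and Tfpi, also higher, had their lowest WT values in those libraries. F8 had 5.41, 6.51, 4.29 and 4.03 CPM in WT and 5.32 to 9.34 CPM in cKO. Tfpi had 3.57, 3.85, 2.34 and 1.94 CPM in WT and 3.9 to 5.1 CPM in cKO. Beside the stellate list, 5 of 8 markers of T and NK cells were higher (summed level 2.57 to 3.71 CPM in WT and 4.38 to 10.1 CPM in cKO). Of cholangiocyte markers 3 of 6 were higher and 1 was lower, and their summed level was not raised (34.8 to 43.6 CPM in WT and 27.9 to 36.9 CPM in cKO). Of macrophage markers 3 of 14 were higher and of endothelial markers 2 of 10, beside 15.3% of all tested genes. The summed levels of both lists overlapped between the genotypes, that of macrophages at 385 to 582 CPM in WT and 315 to 519 CPM in cKO. F8, given above, is also counted among the higher endothelial markers. The part of these cell types in the rises was not tested. The macrophage genes C1qa, C1qb and C1qc, for the recognition part of C1, had log2 changes of -0.05, -0.07 and -0.03 and were not called.

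Among 5 tested membrane regulators of complement, Susd4 and Cd59a were lower and Cr1l was higher. Cr1l, the rodent regulator of C3 convertases, had 25.6, 26.3, 25.3 and 27.1 CPM in WT and 35.5, 35.3, 37.2 and 39.9 CPM in cKO (log2 change 0.50, SE 0.07, edgeR adjusted p = 0.000366). Cd59a, which blocks C9 in the pore, had 69.0, 69.5, 61.9 and 67.1 CPM in WT and 55.4, 54.5, 48.2 and 54.5 CPM in cKO (log2 change -0.33, SE 0.07, edgeR adjusted p = 0.00506). Limma on log2(TPM + 1) ended that call (0.211). Susd4, whose product holds complement control domains, fell by 0.90 on the log2 scale (edgeR adjusted p = 0.00318).

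Of 17 acute phase genes 8 were lower (47.1%, beside 15.1% of all tested genes) and 0 higher (beside 15.3%). Their median log2 change was -0.68. The count of higher genes was also 0 for edgeR without adjustment, for DESeq2 and for limma-voom. The list moved in part with WT replicates 3 and 4. Hp had a log2 change of -1.16 and Fgl1, a relative of fibrinogen, of -1.64, and without those libraries they had -0.77 and -0.74, both past the threshold. Lbp had -0.54 (edgeR adjusted p = 0.00137) and without those libraries -0.43 (0.0084). Saa3 had -1.24 (edgeR adjusted p = 0.0065) and without them -0.77 (0.00287). The call of Fgl1 was lost without WT replicate 4 and without each cKO library in turn (0.0535 to 0.0717). Saa1 was not called (log2 change -4.24, edgeR adjusted p = 0.0542), with its WT libraries spread from 49.1 to 1864 CPM.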

How the data were processed

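Liver RNA of 4 WT and 4 cKO samples was sequenced; libraries were made from total RNA with an Illumina TruSeq kit, per the labels' protocols. STAR 2.5.1, RSEM and the build mm10 are named in the submitters' processing notes. An RSEM version, an annotation and whether strand was used were not given in the sources used here, so overlapping genes cannot be separated by strand. The authors deposited RSEM expected counts (estimates that share out multiply mapped reads), TPM and FPKM per gene, with effective lengths per the file headers. FPKM was not used.

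Expected counts were rounded to whole numbers, filtered with filterByExpr (minimum count 10, minimum total 15), scaled with TMM factors and tested with edgeR 4.0.16 (R 4.3.3; estimateDisp, robust glmQLFit, glmQLFTest) over 15562 genes with Benjamini-Hochberg adjustment. Standard errors came from the F statistic. Ratios used log2 TPM and exact permutation tests over 70 assignments. Alternatives included DESeq2 1.42.0, limma 3.58.1 (log2 of TPM + 1 or TPM + 0.1, at least 0.5 TPM in 4 libraries) and leaving out each library; leaving out WT replicates 3 and 4 together was added after their values were seen. Replicates differed by more than counting noise in every pair, with a chi-square of 28.4 or more for each degree of freedom.

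The members and lists were chosen with earlier results of these data known. Values in every library were given for members past the threshold without overlap, a mean and SD for the remaining called member, and values for the 3 uncalled members of largest WT TPM and the 3 of largest absolute log2 change; other lists gave up to 4 genes of smallest p. Further genes, and further values of uncalled members, were added after their values were seen. Gene positions and promoters came from RefSeq's GRCm38.p6 tables, matched by symbol. A planned promoter motif and a regulator gene are not reported here.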

Additional observations from a re-analysis of the deposited data

Results flagged for a closer look

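In 2 of 80 groups of 4 libraries (40 genes in each genotype) a single library lay far from the others by Dixon's gap ratio; chance gives about 1 in 20 groups. F11 had 26.5 CPM in cKO replicate 2, with 19.7 to 20.7 CPM in the other cKO libraries, all below the lowest WT value. Kng1 had 2228 CPM in cKO replicate 4, with 1994 to 2009 CPM in the other cKO libraries, and this library alone overlapped with WT.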

How the results depend on the processing

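Without adjustment for composition the calls shifted towards higher. With library size alone 16 members (25 in the result as reported) and 1335 genes (2352) were lower and 3624 genes (2386) higher, and without the 20 most abundant genes in the library size 1442 genes were lower. Limma on log2(TPM + 1), on log2(TPM + 0.1) and on log2(TPM + 1) with no filter gave 15, 14 and 11 members and 818, 809 and 600 genes lower; Ctcf then changed by -0.153, -0.178 and -0.153 and did not pass. At an adjusted p under 0.01, 14 members and 1048 genes were lower and 1 member and 1180 genes higher. The higher members numbered 1 with an effective length offset, with limma-voom and without WT replicates 3 and 4. Leaving out 1 library at a time gave 20 to 26 members lower, 1 to 2 higher, 1629 to 2509 genes lower, 1752 to 2541 higher and -0.461 to -0.389 for Ctcf. The cause of these shifts was not tested.

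Same-numbered replicates correlated at 0.042 to 0.057 and differently numbered ones at -0.104 to 0.092. The labels do not say whether the numbers mark a shared litter or day, and these values cannot decide it. With the replicate block 25 members were lower and 2 higher, 2416 genes were lower and 2525 higher, and Ctcf changed by -0.441; the call of Fgl1 was lost (-1.46, adjusted p = 0.0636).

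Reversed values were all of differences not called in either setting. Cfi became 0.001 (upper quartile factors), 0.097 (library size alone), 0.070 (without the top 20 genes), 0.009 (no filter), 0.006 (effective length offset), 0.062 (without WT replicates 3 and 4) and 0.175, 0.176 and 0.175 (limma as above). F12 became 0.084, 0.056 and, with limma, 0.070, and Serpinf2 0.069, 0.041, 0.037 (without WT replicates 3 and 4) and, with limma, 0.153. Under limma Kng1 was 0.016, Kng2 0.018, F2 0.043 and Serpind1 0.007, and without WT replicates 3 and 4 C6 was 0.009. Leaving out 1 library at a time gave -0.049 to 0.021 for Cfi, -0.049 to 0.007 for F12 and -0.102 to 0.026 for Serpinf2. In CPM the log2 ratio difference was 0.000 for Fgg to Fga and 0.012 for C8b to C8a. Leaving out 1 library at a time gave -0.026 to 0.036 for Fgg to Fga, -0.099 to 0.002 for C8b to C8a, -0.041 to 0.147 for Mbl2 to Mbl1 and -0.052 to 0.046 for Kng2 to Kng1.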
